A study of Mus musculus with 9 samples.

Results

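The genes described here are 10 heat shock genes of the cytosol and the mitochondrion, Hsf1, Hspa8, Hspa1a, Hspa1b, Dnajb1, Hsph1, Bag3, Hspb1, Hspd1 and Hspe1, taken by exact gene symbol from the 24532 genes listed for every mouse. RNA came from the medial prefrontal cortex of 9 male mice, C57BL/6 by the labels and C57BL/6J by the study's methods, that the labels give as 11 weeks old, with 3 mice per group and 1 library per mouse. CT mice were wild type and stayed unrestrained in the home cage. WT_ST mice were wild type and were restrained for 6 h per day over 21 days. KO_ST mice were homozygous Fkbp5-/- and went through the same restraint. By the study's methods, CT mice as well as restrained mice were without food and water during the restraint period. The knockout is a constitutive deletion kept on the C57BL/6J background, backcrossed for 10 generations by the study's methods. Wild types and knockouts came from matings of heterozygotes. Unstressed knockout mice were not analysed here, so an effect of the allele alone cannot be told apart from an effect of the allele under stress.

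Heat shock proteins are molecular chaperones. Heat shock factor 1, encoded by Hsf1, is held inactive in unstressed cells, partly by the chaperones themselves; when unfolded protein draws these away, it forms trimers, binds heat shock elements in DNA and raises transcription of the inducible chaperones, above all Hspa1a and Hspa1b. Hspa8 is the constitutive counterpart of those inducible HSP70 proteins and is abundant in neurons, where it also uncoats clathrin-coated vesicles. HSP70 works with HSP90 to fold the glucocorticoid receptor, and the product of Fkbp5 joins HSP90 in that receptor complex and lowers its affinity for hormone. The comparisons ask whether weeks of restraint, with or without Fkbp5, left the RNA of this system changed.

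The DNA that heat shock factor 1 recognises is built from the unit GAA and its reverse, TTC, alternating with a gap of any 2 bases. RefSeq promoter windows, each from 250 bases before to 50 bases after an annotated start on GRCm38.p6, were found for 8 of the 10 genes, with none for Hspa8 and Hsf1. The stretches below show where the 2-unit elements GAANNTTC and TTCNNGAA lie in the genes whose values the results turn on. Each is read 5′ to 3′ on the gene's own strand (for the pair Hspd1 and Hspe1, on the strand of Hspe1), and the elements are in capitals. The Hspa1a stretch is chr17:34972157-34972306 on the minus strand, the Hspa1b stretch chr17:34959239-34959388 on the minus strand, the Hspb1 stretch chr5:135887769-135887918 on the plus strand and the Dnajb1 stretch chr8:83608025-83608174 on the plus strand, each the 150 bases before the start. The last, chr1:55088053-55088082, is a short piece between the start of the shorter Hspd1 transcript and the start of Hspe1. These starts lie 215 bases apart and are read in opposite directions. The piece overlaps 1 annotated exon, since the Hspd1 gene reaches 55088243, and it lies after the start of the longer Hspd1 transcript.
Hspa1a: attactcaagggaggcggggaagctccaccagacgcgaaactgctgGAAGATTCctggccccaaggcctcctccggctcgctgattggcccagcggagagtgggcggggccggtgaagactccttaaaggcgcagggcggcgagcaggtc
Hspa1b: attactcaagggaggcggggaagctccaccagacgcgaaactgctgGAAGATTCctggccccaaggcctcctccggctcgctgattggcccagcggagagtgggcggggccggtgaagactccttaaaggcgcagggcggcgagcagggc
Hspb1: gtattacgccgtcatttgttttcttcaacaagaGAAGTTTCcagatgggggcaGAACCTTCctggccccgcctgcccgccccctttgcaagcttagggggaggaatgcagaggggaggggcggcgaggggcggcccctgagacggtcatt
Dnajb1: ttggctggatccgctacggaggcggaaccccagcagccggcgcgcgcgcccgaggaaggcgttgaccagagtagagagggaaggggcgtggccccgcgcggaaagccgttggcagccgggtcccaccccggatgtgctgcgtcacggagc
Hspd1-Hspe1: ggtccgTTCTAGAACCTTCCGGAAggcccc

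Hspa1a and Hspa1b carried the same element at the same place, 104 bases before the start, and their whole 300-base windows differed at 4 bases, with 1 of these in the stretch printed above. Hspb1 had 2 elements, 117 and 97 bases before its start. Hspd1 and Hspe1 shared a single run of 18 bases in which 4 units alternate. It lay in 1 of the 2 windows of Hspd1, and the other held no match. A 2-unit element was found in a window of 7 of the 8 genes, and in 15.1% of all 32851 promoter windows. A 3-unit element was found for 3 of the 8 (Hsph1, Hspd1 and Hspe1), and in 0.603% of all windows. Both elements were searched on both strands, and a 3-unit match holds overlapping 2-unit matches. For Hsph1 the 3-unit match lay after the start, as did the 2-unit match of Bag3. Dnajb1 had neither in either of its windows, which says only that these letters were not in these windows. A match is a description of the letters and not of binding.

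**Figure D1:**
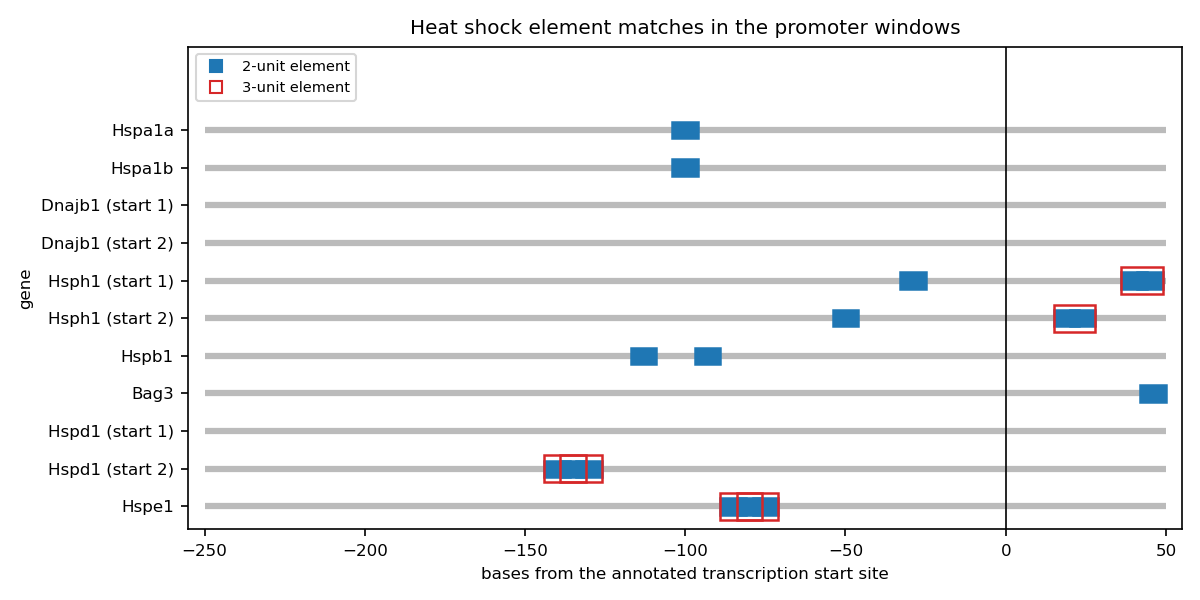
Positions of heat shock element matches in bases from the annotated start (0 on the x axis), 1 row per promoter window. Filled blue boxes are 2-unit and open red boxes 3-unit matches. Hspa1a and Hspa1b have theirs at the same distance, Hspd1 (start 2) and Hspe1 show their shared run from either side, and Dnajb1 has none.

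Levels are given as FPKM, read fragments scaled by transcript length and by the mapped reads of the library, so that they can be compared between genes. The order of the means over the 9 mice was Hspa8 (969), Hsph1 (99.8), Hspd1 (68.4), Hspe1 (49.4), Dnajb1 (22.8), Hsf1 (16.9), Hspa1b (6.14), Hspa1a (5.33), Hspb1 (3.81) and Bag3 (1.63). Neighbours in this order did not overlap over the 9 mice, except Hspa1b with Hspa1a and Hspa1a with Hspb1. Hspa8 ranked 7 among the 14370 genes tested, whereas the stress-inducible HSP70 genes, Hspa1b and Hspa1a, ranked 8291 and 8783. All 10 genes had the mean of at least 30 reads per mouse needed for testing. The lowest read numbers were 105 for Hspb1 and 152 for Bag3 in any mouse, so both are measured with less counting precision than Hspa8, at 88126 reads or more.

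**Figure D2:**
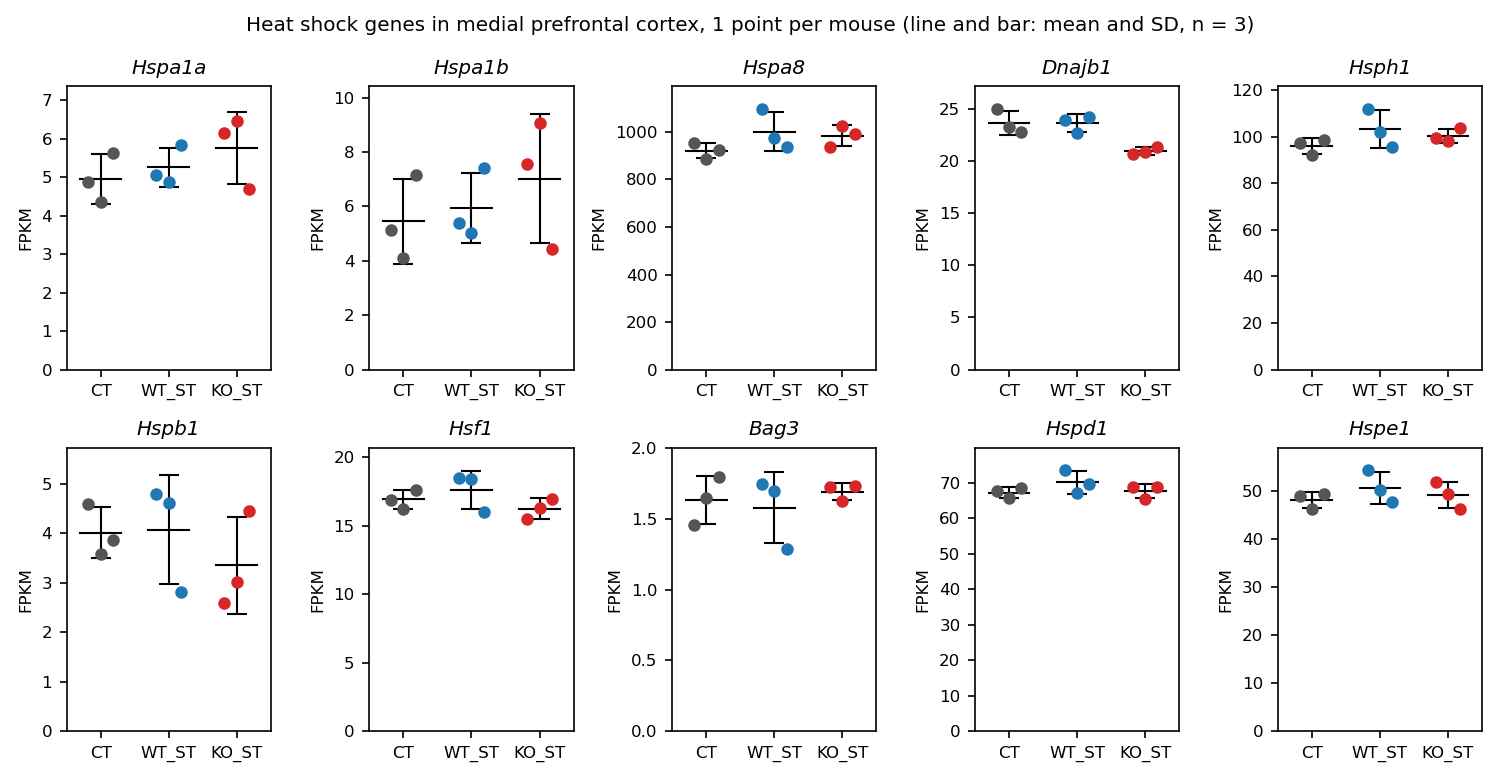
FPKM (y axis, from 0) of the 10 heat shock genes in CT, WT_ST and KO_ST mice. Points are mice, and the line and bar are the mean and SD of 3 mice. Dnajb1 is the gene whose 3 KO_ST points (20.6 to 21.3) sit below all 6 others, and Hspa1b spans 4.08 to 9.08 with every group overlapping.

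In each comparison below, log2(FPKM + 1) was quantile normalized and tested with limma, and a gene was called at an unadjusted p under 0.05 with a fold change above 1.2. Adjusted p-values are Benjamini-Hochberg values over all 14370 genes. The targeted gene was checked first. Fkbp5 stood at 7.61, 6.46 and 7.28 FPKM in CT, at 9.83, 9.47 and 10.3 in WT_ST and at 3.60, 4.68 and 4.45 in KO_ST mice, so that the 3 groups did not overlap. The values cover the whole gene and do not show which exons the remaining reads come from.

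Restraint of wild-type mice was accompanied by no call among the 10 genes. In WT_ST against CT, 0 of 10 were called by limma, where 2.47% of all tested genes were. At an unadjusted p under 0.05 alone the count was also 0 of 10, where 7.86% of all tested genes passed. edgeR (3.72% of all tested genes called) and DESeq2 (3.84%), both run on the read counts, called 0 of 10 as well. The fitted differences lay between -0.01 for Bag3 and 0.14 for Hspa1b on the log2 scale, with 9 of 10 above 0. Their median was 0.07, against 0.00338 over all tested genes. For 7 of the 10 the 95% interval of the difference stayed inside 1.2-fold in both directions, the exceptions being Hspa1a, Hspa1b and Hspb1. Without quantile normalization 7 of 10 differences were above 0, and the interval of Hspa8 also reached past 1.2-fold.

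In KO_ST against CT, 0 of 10 genes were called by limma, where 3.56% of all tested genes were. Dnajb1 alone had an unadjusted p under 0.05, 1 of 10 beside 9.46% of all tested genes, and edgeR (4.63% of all tested genes called) and DESeq2 (5.14%) called 0 of 10. In KO_ST against WT_ST, limma again called 0 of 10, with 2.0% over all tested genes. Dnajb1 was the 1 gene of 10 with an unadjusted p under 0.05, where 5.82% of all tested genes passed, and 0 of 10 were called by edgeR (2.96% of all) and DESeq2 (2.85%). The fitted differences ran from -0.19 for Hspb1 to 0.32 for Hspa1b against CT, and from -0.22 for Hspb1 to 0.18 for Hspa1b against WT_ST, all in log2 units. Hspb1 and Hspa1b therefore marked the lower and the upper end in both, and neither passed the test in either.

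With the 6 stressed mice of both genotypes set against CT in a fit over all 9 mice, 0 of 10 genes were called by limma (2.67% of all tested genes), and 0 of 10 had an unadjusted p under 0.05 (11.6% of all). edgeR called 0 of 10 (4.42% of all) and DESeq2 0 of 10 (4.73% of all), although Hspa8 had an unadjusted DESeq2 p of 0.0465 for a log2 difference of 0.12. The smallest limma adjusted p of the 10 in any of the 4 comparisons was 0.456, for Hsph1 in this one. These comparisons share mice, so their values are not independent of each other. With 3 mice per group, a p that misses the threshold does not show equal expression, and the intervals give the sizes that remain possible.

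**Figure D3:**
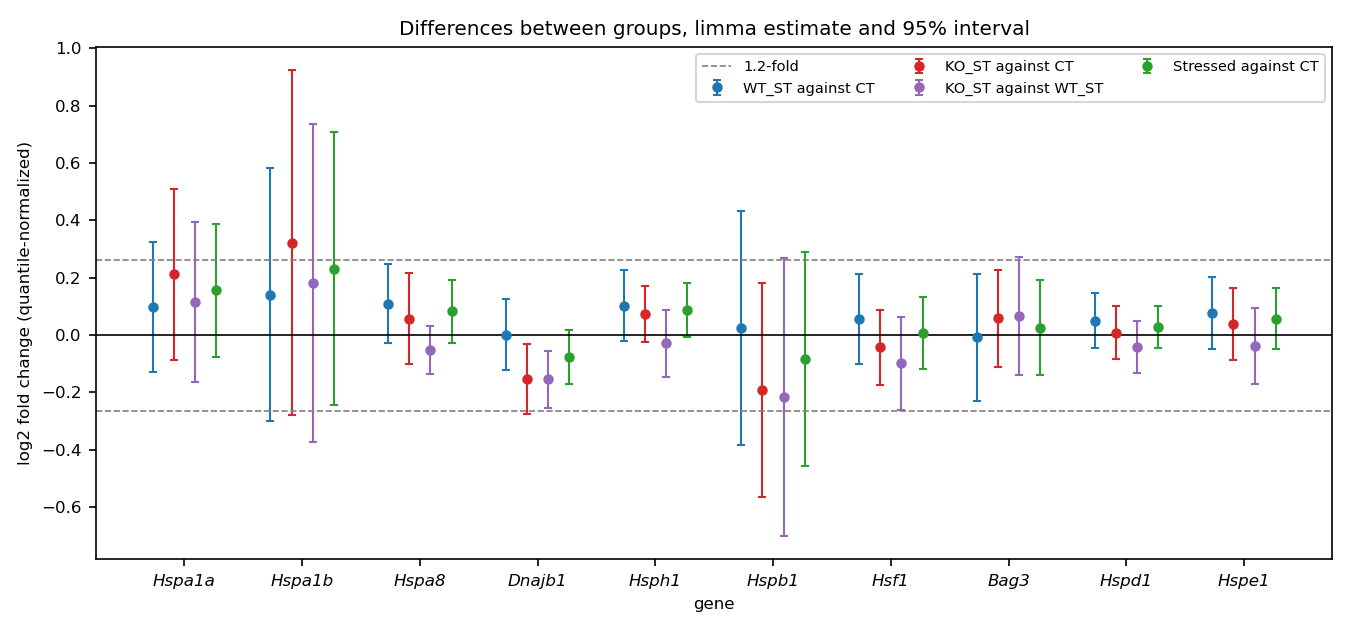
Log2 fold change (y axis) of each gene in the 4 comparisons, with points for the limma estimate and bars for its 95% interval. Dashed lines mark 1.2-fold. Hspa1b has the widest intervals, and Dnajb1 in KO_ST against CT (-0.28 to -0.03) and against WT_ST (-0.25 to -0.05) is the gene whose interval leaves out 0.

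Hsf1, the transcription factor itself, measured 16.9, 16.3 and 17.6 FPKM in CT, 18.5, 18.4 and 16.0 in WT_ST and 15.4, 16.3 and 17.0 in KO_ST mice. The groups overlapped throughout. The log2 difference was 0.06 (SE 0.067) in WT_ST against CT and -0.10 (SE 0.069) in KO_ST against WT_ST, with limma adjusted p of 0.846 and 0.940. The gene lies on chromosome 15 (76477362 to 76501155), and its RNA level does not report the trimeric, DNA-binding state of the protein.

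Hspa8, the constitutive HSP70, measured 952, 888 and 925 FPKM in CT, 1094, 972 and 938 in WT_ST and 937, 1026 and 990.0 in KO_ST mice. The highest CT mouse lay above the lowest mouse of both stressed groups in FPKM. Quantile normalization sets a value by its rank in the library, and Hspa8 held rank 6 to 10 among all genes. All WT_ST mice and KO_ST replicate 2 held rank 6 and so received the identical log2 value of 9.98, although their FPKM differed. On that scale WT_ST and CT did not overlap, as for 14.0% of all tested genes, and Hspa8 was the 1 gene of 10, a separation that the FPKM do not show. The normalized WT_ST difference of 0.11 (SE 0.058, 95% interval -0.03 to 0.25, limma adjusted p = 0.679) thus shows none of the spread among WT_ST mice. Without quantile normalization it was 0.12 (SE 0.072, -0.05 to 0.29, limma adjusted p = 0.723), and in KO_ST against CT 0.09 (SE 0.059) in place of 0.06. Of the 100-base windows of the Hspa8 transcript, 62.8% also occur in transcripts of 7 other genes, with 58.5% in a single processed pseudogene, so how reads were assigned among these copies can affect its level.

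The inducible HSP70 genes are near-identical neighbours on chromosome 17, Hspa1b at 34956429 to 34959238 and Hspa1a at 34969359 to 34972156. Hspa1a measured 4.87, 4.37 and 5.64 FPKM in CT, 5.05, 4.88 and 5.85 in WT_ST and 6.14, 6.47 and 4.70 in KO_ST mice. Hspa1b measured 5.13, 4.08 and 7.15 in CT, 5.40, 5.04 and 7.41 in WT_ST and 7.54, 9.08 and 4.45 in KO_ST mice. In every group some mice were low and others high, the groups overlapped for both genes, and the spread within KO_ST was the widest. Hspa1b had an SD over the 9 mice of 0.34 on the log2 scale, larger than that of 97.0% of all tested genes, and Hspa1a one of 0.17, larger than that of 83.9%. The difference in KO_ST against CT was 0.32 (SE 0.25, 95% interval -0.28 to 0.92) for Hspa1b and 0.21 (SE 0.13, -0.09 to 0.51) for Hspa1a, with limma adjusted p of 0.710 and 0.620.

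Of the 100-base windows of the Hspa1a transcript 47.1% also occur in Hspa1b, and 49.9% of those of Hspa1b in Hspa1a. The split of reads between both is therefore uncertain, and their summed FPKM is given as well. The sum depends less on that split, but it would change if shared reads were dropped or counted for both genes. The sum was 9.998, 8.45 and 12.8 in CT, 10.4, 9.92 and 13.3 in WT_ST and 13.7, 15.5 and 9.15 in KO_ST mice. KO_ST held both the 2 highest values and the second lowest, and no pair of groups was separate. On log2(sum + 1) the difference was 0.105 in WT_ST against CT (exact two-sided permutation p = 0.6), 0.261 in KO_ST against CT (exact p = 0.4) and 0.156 in KO_ST against WT_ST (exact p = 0.6). Among 3 against 3 mice the smallest exact p is 0.1, so none of these could have passed 0.05. For all 6 stressed mice against CT the difference was 0.183 (exact permutation p = 0.369), in a design that can reach 0.0119.

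The result in KO_ST depended on single mice in both directions. Without KO_ST replicate 3, in which Hspa1a and Hspa1b were lowest of their group and Hspb1 highest, 3 of 10 genes met the call rule in KO_ST against CT, where 4.57% of all tested genes did without that mouse, and 1 of 10 in KO_ST against WT_ST, where 3.32% did. In KO_ST against CT they were Hspa1b (0.58, SE 0.20), Hspa1a (0.34, SE 0.10) and Hspb1 (-0.36, SE 0.11), and in KO_ST against WT_ST the 1 gene was Hspa1b (0.44, SE 0.16). Their limma adjusted p without that mouse lay between 0.501 and 0.601. Without KO_ST replicate 2, in which both Hspa1 genes were highest, the difference against CT fell to 0.13 for Hspa1b and 0.13 for Hspa1a, neither called, and against WT_ST to -0.01 and 0.03. CT mice moved Hspa1b against CT as well, to 0.17 without CT replicate 2 and 0.50 without CT replicate 3. For the log2(sum + 1) of both genes against CT, leaving out 1 mouse at a time gave 0.115 (without KO_ST replicate 2) to 0.467 (without KO_ST replicate 3). Against WT_ST the same mice gave 0.00955 and 0.362, and for stressed mice together the range was 0.0556 (without CT replicate 2) to 0.328 (without CT replicate 3). Both Hspa1 genes lie about 6.5 Mb from Fkbp5 (chromosome 17, 28398753 to 28486149). In knockout mice, chromosome 17 DNA near the targeted allele can stem from the embryonic stem cell strain. Whether any was left at this distance after the 10 generations of backcrossing was not tested. The allele and its flanking DNA therefore cannot be told apart here.

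The co-chaperone Dnajb1 is the HSP40 that hands unfolded clients to HSP70 and is itself a heat shock factor target. It was the 1 gene of the 10 whose KO_ST mice were apart from both other groups. It measured 25.0, 23.2 and 22.8 FPKM in CT, 24.0, 22.7 and 24.3 in WT_ST and 20.6, 20.9 and 21.3 in KO_ST mice. All KO_ST mice lay below all mice of the other groups, while CT and WT_ST overlapped. The share of all tested genes with KO_ST apart from both other groups was not counted. The difference was -0.15 (SE 0.052, 95% interval -0.28 to -0.03) in KO_ST against CT, or -10.1% (unadjusted p = 0.0206, limma adjusted p = 0.499). In KO_ST against WT_ST it was -0.15 (SE 0.042, -0.25 to -0.05), or -10.1% (unadjusted p = 0.00797, limma adjusted p = 0.690). Each is under the 1.2-fold set for a call, and neither passed the adjustment. Left out in turn, no mouse turned the direction, and the unadjusted limma p in KO_ST against CT rose to 0.0674 without CT replicate 1 and to 0.0632 without KO_ST replicate 1 (adjusted 0.470 and 0.725). Groups that did not overlap on the normalized scale made up 15.8% of all tested genes in KO_ST against CT, where 2 of the 10 genes (Dnajb1 and Hsph1) did not, and 11.0% in KO_ST against WT_ST, where Dnajb1 was the 1 of 10. In WT_ST against CT its difference was 0.0008 (SE 0.053), and no 100-base window of Dnajb1 occurred in another gene's transcripts.

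Hsph1, the HSP110 that acts as nucleotide exchange factor of HSP70, measured 97.2, 92.2 and 98.3 FPKM in CT, 112, 102 and 95.7 in WT_ST and 99.5, 98.1 and 104 in KO_ST mice. Before quantile normalization its FPKM overlapped in every pair of groups. It was higher in both stressed groups by 0.10 (SE 0.052) and 0.07 (SE 0.042), with limma adjusted p of 0.673 and 0.593. Bag3, the BAG-domain co-chaperone that directs HSP70 clients to autophagy, was the lowest of the 10 genes. It measured 1.46, 1.65 and 1.80 in CT, 1.75, 1.69 and 1.29 in WT_ST and 1.72, 1.62 and 1.73 in KO_ST mice, with all groups overlapping and differences between -0.01 and 0.07.

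Hspb1, the small heat shock protein HSP27 that holds unfolded proteins without using ATP, varied second most. It measured 4.59, 3.58 and 3.87 FPKM in CT, 4.79, 4.62 and 2.82 in WT_ST and 2.58, 3.01 and 4.46 in KO_ST mice. The low mice were WT_ST replicate 3 and KO_ST replicates 1 and 2, which had the 3 highest Hspa1b values. The difference was -0.19 (SE 0.16, 95% interval -0.56 to 0.18) in KO_ST against CT and -0.22 (SE 0.21, -0.70 to 0.27) in KO_ST against WT_ST, with limma adjusted p of 0.720 and 0.945. A processed pseudogene shares 42.7% of its 100-base windows.

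The mitochondrial chaperonin is a folding chamber of HSP60, encoded by Hspd1, closed by a lid of HSP10, encoded by Hspe1. The genes are head to head on chromosome 1, Hspd1 at 55077833 to 55088243 and Hspe1 at 55088148 to 55091317. Their first exons overlap in part, and without a stated strand setting reads there could count for either. Hspd1 measured 67.6, 65.6 and 68.5 FPKM in CT, 73.6, 67.3 and 69.7 in WT_ST and 68.9, 65.5 and 68.8 in KO_ST mice. It was the steadiest of the 10, with a smaller SD over the 9 mice (0.04 on the log2 scale) than all but 2.82% of tested genes. Hspe1 measured 49.0, 46.2 and 49.4 in CT, 54.4, 50.2 and 47.8 in WT_ST and 51.9, 49.4 and 46.4 in KO_ST mice. All groups overlapped for both, and the largest difference was 0.08 (SE 0.053) for Hspe1 in WT_ST against CT, with a limma adjusted p of 0.730. Intervals of both stayed inside 1.2-fold in all 4 comparisons.

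Whether genes of this system were high or low in the same mice was asked of 5 pairs over the 9 mice, on the normalized log2 scale. Hspa1a and Hspa1b varied together (Pearson r = 0.984, exact permutation p = 5.51e-06, adjusted over the 5 pairs 2.76e-05, and Spearman rho = 0.983, exact p = 4.96e-05, adjusted 0.000248). Without the 2 mice farthest from the median of Hspa1a, r was 0.980, and for deviations from the group means it was 0.995. How reads that fit both genes were assigned is not stated, and the part of such reads in r was not tested. For Hspd1 and Hspe1, r was 0.501 (rho 0.233) and turned to -0.46 without the 2 farthest mice. It was 0.44 (rho 0.355) for Hspa8 and Hspa1b, 0.245 (rho 0.267) for Hspb1 and Bag3 and -0.188 (rho -0.283) for Hsph1 and Dnajb1. The exact permutation p of these 4 pairs, adjusted over the 5, lay between 0.405 and 0.630 for r and was 0.552 for each rho. Without quantile normalization r was 0.125 for Hspa8 and Hspa1b and -0.06 for Hsph1 and Dnajb1. Over all 45 pairs of the 10 genes the median r was 0.263, and 30 were above 0, which is given as a description.

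The lowest r of the 45 pairs were those of Hspb1 with Hspa1a (-0.698) and with Hspa1b (-0.692), a pair of values singled out after they were seen and given with no test. The genes most like Hspb1 over the 9 mice were Ino80e (r = 0.966), Cald1 (0.944) and Adgrb1 (0.941). For Hspa1b they were Hspa1a (0.984), Coa3 (0.947) and Cbr4 (0.910), and for Hspa1a they were Hspa1b (0.984), Cbr4 (0.950) and Mrps18b (0.930). These are the highest of 14370 values each, over 9 mice, and are given as a description.

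**Figure D4:**
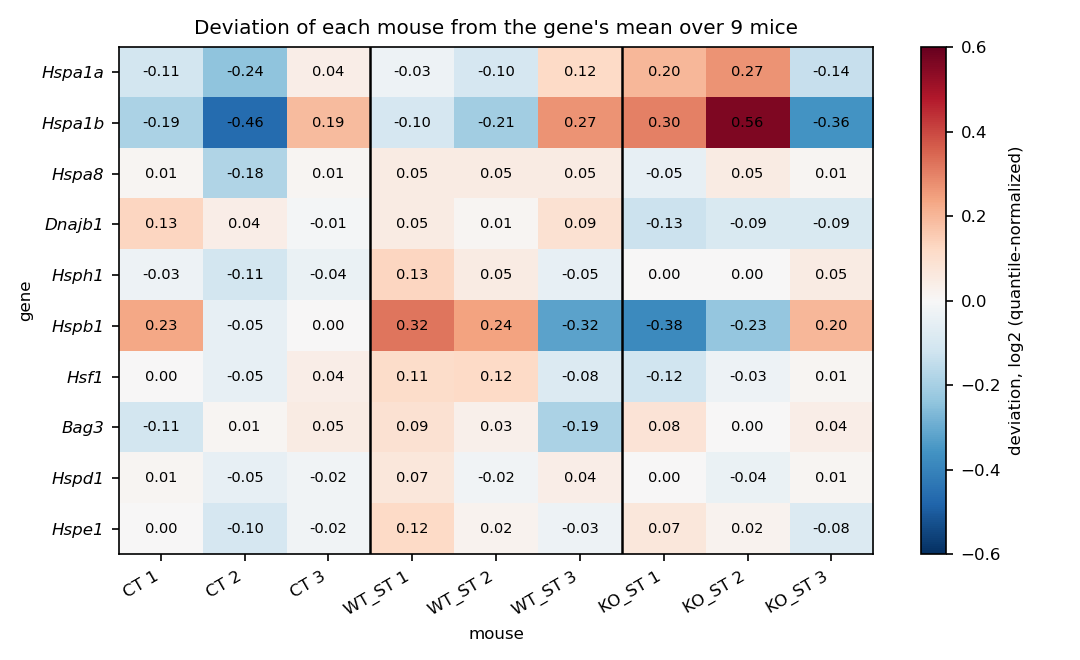
Deviation of each mouse (columns) from each gene's mean over 9 mice, in log2 units after quantile normalization, with the value in each cell. Hspa1a and Hspa1b are high or low in the same mice within every group, Hspb1 tends the other way, and Hspd1 varies least.

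The rest of the chaperone system was read from 7 lists of 54 genes, of which 51 were tested. In WT_ST against CT none of the 51 was called, where 2.47% of all tested genes were, with a median log2 difference of 0.07, and 6 had an unadjusted limma p under 0.05, where 7.86% of all tested genes did. In KO_ST against CT 1 was called higher and 1 lower (3.92%), and in KO_ST against WT_ST 1 lower (1.96%), where 3.56% and 2.0% of all tested genes were called. For stressed mice together 0 of 51 were called by limma and 7 had an unadjusted p under 0.05, beside 2.67% and 11.6% of all tested genes. No gene was called among the other heat shock factors and their regulator (3 tested), the other HSP70 and HSP110 genes (6), the small heat shock genes (5), the HSP70 co-factors (8), the TRiC chaperonin of the cytosol (8) or the mitochondrial chaperones and proteases (13).

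The called genes were J-domain co-chaperones of the same family as Dnajb1. Dnajb4 measured 11.1, 10.7 and 10.6 FPKM in CT, 11.5, 12.3 and 12.2 in WT_ST and 11.2, 24.3 and 29.1 in KO_ST mice. It was higher in KO_ST than in CT by 0.85 (SE 0.30, limma adjusted p = 0.501), and KO_ST replicates 2 and 3 alone stood far above the other 7 mice. Dnajb6, which suppresses protein aggregation, measured 79.9, 37.3 and 73.6 in CT, 85.7, 78.4 and 38.8 in WT_ST and 39.1, 33.4 and 38.7 in KO_ST mice. Its values fell at one level near 33 to 39 and another near 74 to 86, with no mouse between, and all KO_ST mice were at the lower. The differences were -0.69 (SE 0.26) against CT and -0.76 (SE 0.27) against WT_ST, with limma adjusted p of 0.501 and 0.815. Of its 100-base windows 31.0% occur in 7 other genes, with 19.2% in 1 processed pseudogene, whereas Dnajb4 shares none. Leaving out 1 mouse ended the call of Dnajb4 for 5 of 6 mice (all CT mice and KO_ST replicates 2 and 3), with differences of 0.60 to 1.25. It ended that of Dnajb6 against CT for 5 of 6 mice (all but CT replicate 2), with differences of -1.03 to -0.49, and against WT_ST for 3 of 6 (WT_ST replicates 1 and 2 and KO_ST replicate 2), with differences of -1.11 to -0.57.

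**Figure D5:**
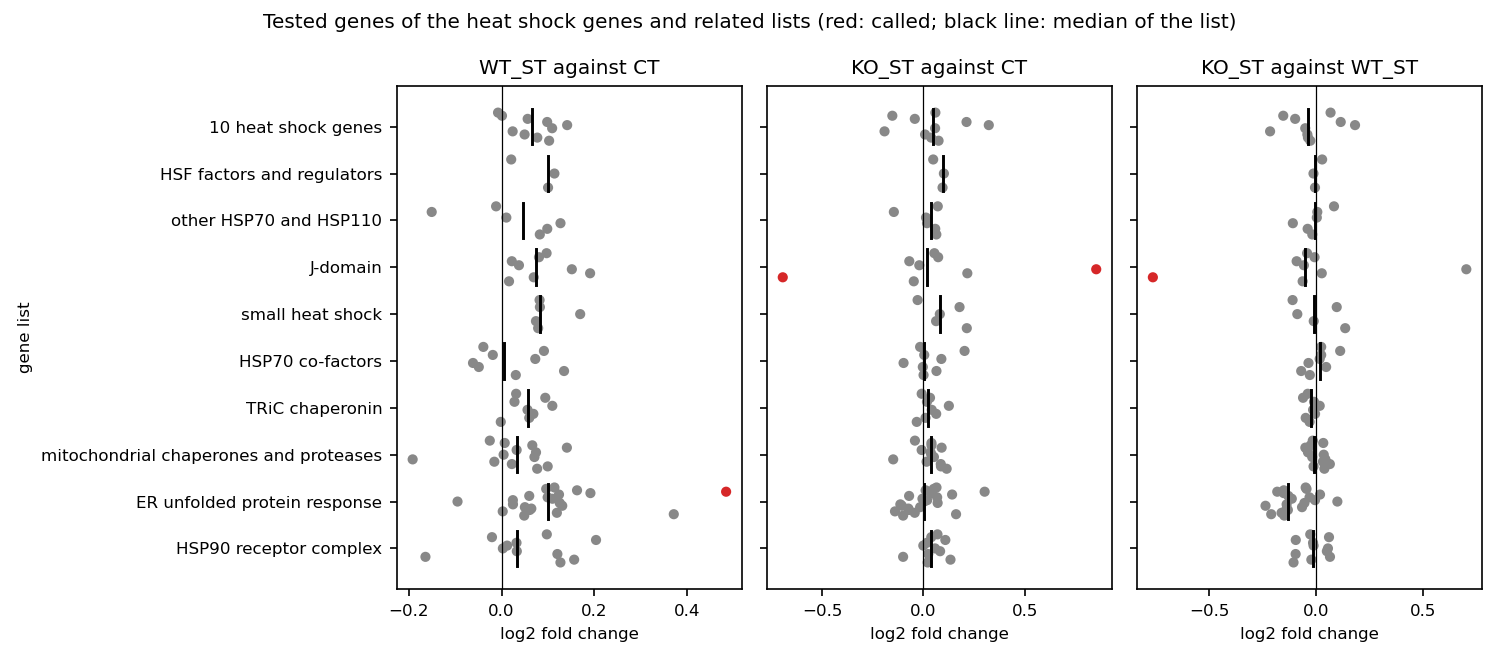
Log2 fold change (x axis) of each tested gene in the 10 heat shock genes, the 7 related chaperone lists, the endoplasmic reticulum list and the HSP90 receptor complex, for the 3 comparisons between groups. Red points are called genes (Dnajb4, Dnajb6 and Canx) and black lines are list medians. The heat shock genes lie within 0.33 of 0 in every panel.

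The unfolded protein response of the endoplasmic reticulum is the parallel system for secreted proteins, with its own transcription factors. Of its 21 tested genes, 9 had an unadjusted limma p under 0.05 in KO_ST against WT_ST, all under 1.2-fold, where 5.82% of all tested genes passed, and the list's median was -0.13 beside -0.04 for the 10 heat shock genes. In WT_ST against CT 3 of 21 passed that limma threshold (7.86% of all), in KO_ST against CT 1 (9.46%) and for stressed mice together 2 (11.6%). Canx, the membrane lectin chaperone calnexin, was its 1 called gene, in WT_ST against CT (2.47% of all tested genes called), where it was higher by 0.48 (SE 0.11, limma adjusted p = 0.542), and for stressed mice together (2.67%), by 0.39 (SE 0.13, limma adjusted p = 0.332). The latter call was lost without CT replicate 1 or CT replicate 3. In the HSP90 receptor complex 0 of 11 genes were called by limma in any comparison, where 2.0% to 3.56% of all tested genes were. At an unadjusted limma p under 0.05 there were 3 of 11 in WT_ST against CT (7.86% of all), 0 in KO_ST against CT (9.46%), 1 in KO_ST against WT_ST (5.82%) and 2 for stressed mice together (11.6%). The difference between these lists and the 10 heat shock genes was not tested.

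Libraries held 43778471 to 61150128 reads on genes. Markers of excitatory neurons were high in all mice (summed FPKM 708 to 815), and those of choroid plexus (0.400 to 1.06) were near 0. Red blood cell sums varied most, at 82.8 to 775 in CT, 85.8 to 499 in WT_ST and 110 to 274 in KO_ST mice, with all groups overlapping. In each group the mouse with the highest of these sums also had the highest Hspa1b, seen after the fact. The lowest mouse was the same in WT_ST and KO_ST but not in CT. The part of blood in the Hspa1a and Hspa1b values was not tested. All 4 microglia markers were called lower in WT_ST and in KO_ST against CT, where 2.47% and 3.56% of all tested genes were called. Their sums were 71.5 to 86.2 in CT, 53.3 to 62.9 in WT_ST and 27.1 to 62.3 in KO_ST mice. Leaving out a single mouse ended the call in KO_ST against CT for Csf1r (any CT mouse or KO_ST replicate 2) and Tmem119 (CT replicates 1 or 3), and in WT_ST against CT for P2ry12 (CT replicate 3 or WT_ST replicate 3). For stressed mice together all 4 were also called lower, where 2.67% of all tested genes were called. There a single mouse ended the call for Csf1r (any CT mouse or WT_ST replicate 3) and Tmem119 (CT replicates 1 or 3 or WT_ST replicates 2 or 3). P2ry12 was also called lower in KO_ST than in WT_ST (1 of 4, beside 2.0% of all tested genes), a call lost for 5 of 6 mice (all but KO_ST replicate 3). Cx3cr1 lost no call when single mice were left out. Called markers of other cells were Aqp4 and Slc1a3 of astrocytes, Cldn5 of endothelium and Pvalb of GABA neurons. In WT_ST against CT, Aqp4 (-0.59, SE 0.17), Slc1a3 (-0.30, SE 0.064) and Cldn5 (-0.32, SE 0.10) were lower. Other markers of the same lists stood the other way there without a call, Gfap at 0.21 (SE 0.16) and Aldh1l1 at 0.16 (SE 0.13) for astrocytes and Ly6c1 at 0.22 (SE 0.063) for endothelium, the last with an unadjusted limma p of 0.0109 (adjusted 0.630) under 1.2-fold. Pecam1 (-0.20, SE 0.084), Flt1 (-0.13, SE 0.10) and Pdgfrb (-0.10, SE 0.085) were below 0 there like Cldn5, without a call. In KO_ST against CT, Cldn5 was lower (-0.39, SE 0.092) and Pvalb higher (0.34, SE 0.099), while Ly6c1 again stood above 0 (0.23, SE 0.062, limma adjusted p = 0.470) without a call. Pecam1 (-0.25, SE 0.092), Flt1 (-0.23, SE 0.14) and Pdgfrb (-0.05, SE 0.11) were again below 0. In each comparison with CT, 3 of the 5 endothelial markers had an unadjusted limma p under 0.05 (7.86% to 11.6% of all tested genes). These were Ly6c1, higher, and Cldn5 and Pecam1, lower. Aqp4, Slc1a3, Cldn5 and Pvalb were called in the directions given for stressed mice together. Astrocyte sums were 177 to 204 in CT, 161 to 165 in WT_ST and 154 to 193 in KO_ST. WT_ST thus lay below CT, but most of this sum is Slc1a3. Endothelial sums (51.9 to 62.9 over all mice) and GABA neuron sums (369 to 455) overlapped between groups. Ly6c1, the 1 endothelial marker above 0 against CT, is the largest part of the endothelial sum. The GABA neuron sum is mostly Sst, and of the 5 markers in that list 2 had an unadjusted limma p under 0.05 in WT_ST against CT (7.86% of all tested genes), 4 in KO_ST against CT (9.46%) and 4 for stressed mice together (11.6%), all of them higher. In KO_ST against CT these were Pvalb, Slc32a1 (0.25, SE 0.055), Gad2 (0.19, SE 0.051) and Gad1 (0.17, SE 0.066), the last 3 under 1.2-fold, while Sst was at 0.04 (SE 0.091). Against CT, single mice left out ended the call of Cldn5 in WT_ST (CT replicate 2 or WT_ST replicate 3), of Slc1a3 in WT_ST (CT replicate 3) and of Pvalb in KO_ST (CT replicate 2), and for stressed mice that of Aqp4 for 6 of 9 mice (all but CT replicate 2, WT_ST replicate 3 and KO_ST replicate 1), of Slc1a3 (CT replicate 3 or KO_ST replicate 2) and of Pvalb (CT replicate 2). In bulk tissue fewer cells of a type and less RNA per cell cannot be told apart, and the part of cell makeup in the values of the heat shock genes was not tested. Immediate early genes, which respond within minutes to handling as heat shock genes can, were called higher in KO_ST than in WT_ST for 4 of 10 (Arc, Nr4a1, Ier2 and Dusp1), where 2.0% of all tested genes were called in either direction. Egr1 (-0.23, SE 0.18), Egr2 (-0.35, SE 0.16) and Fosb (-0.26, SE 0.13) had differences below 0 and were not called. Leaving out a single mouse ended the call for 5 of 6 mice for Ier2 (0.20 to 0.52; all but KO_ST replicate 1) and for 2 of 6 for Nr4a1 (0.24 to 0.50; WT_ST replicate 1 and KO_ST replicate 2). In each comparison with CT 0 of the 10 were called, where 2.47% to 3.56% of all tested genes were. CT replicate 1 lay within the KO_ST range for all 4 called genes (Arc 34.9, Nr4a1 35.7, Ier2 4.35 and Dusp1 13.6 FPKM). The part of these immediate early gene differences in the Hspa1a and Hspa1b values was likewise not tested.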

How the data were processed

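The authors sequenced polyadenylated RNA as stranded paired-end libraries, aligned the reads to mm10 (GRCm38) and deposited, per gene and mouse, read counts without normalization and FPKM values. The submitters' processing notes name HISAT2 2.1.0, Bowtie2 2.3.4.1 and StringTie 1.3.4d. The strand setting of the counting and its rule for reads that fit several genes are not given in the sources used here. Here, log2(FPKM + 1) was quantile normalized over 9 mice, and 14370 genes with a mean of at least 30 reads were tested with limma 3.58.1 in R 4.3.3, on the scale and with the call thresholds of the study, but with limma's moderated test (with a trend, over the mice of the groups compared) in place of its Student test. edgeR 4.0.16 and DESeq2 1.42.0 on counts, other pseudocounts, filters and scalings, a replicate block and leaving out each mouse were alternatives. The limma, edgeR and DESeq2 fits were tested on simulated data for WT_ST against CT alone. Permutation tests were exact. Genes named are the 10, Fkbp5, list genes called in a comparison, and the 3 genes most like each of the 3 most variable. Uncalled marker and immediate early genes were named after their values were seen, to set them beside called members of their lists. The 10 genes and the lists were chosen with earlier results of these data known.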

Additional observations from a re-analysis of the deposited data

How the results depend on the processing

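No alternative other than leaving out a mouse made any of the 10 heat shock genes a call. The count of called genes ranged from 0 to 3 in KO_ST against CT and from 0 to 1 in KO_ST against WT_ST when mice were left out. Values near 0 changed sign. Without quantile normalization the log2 difference in WT_ST against CT was -0.0004 for Dnajb1 and -0.0016 for Hspb1, and for stressed mice against CT it was -0.0012 for Hsf1 and -0.0004 for Bag3. Leaving out each mouse gave these ranges for the others. In WT_ST against CT they were -0.0129 to 0.3158 for Hspa1b, -0.0314 to 0.0404 for Dnajb1, -0.0939 to 0.2225 for Hspb1, -0.0647 to 0.0768 for Bag3 and -0.0223 to 0.2501 for the sum of Hspa1a and Hspa1b. In KO_ST against CT they were -0.0023 to 0.0936 for Hspa8 and -0.0069 to 0.0237 for Hspd1. In KO_ST against WT_ST they were -0.0134 to 0.4434 for Hspa1b, -0.0737 to 0.0139 for Hsph1, -0.0182 to 0.1239 for Bag3 and -0.0733 to 0.0043 for Hspe1. For stressed mice against CT they were -0.1684 to 0.0156 for Hspb1, -0.0182 to 0.039 for Hsf1 and -0.0205 to 0.0677 for Bag3. The correlation ranged from -0.01587 to 0.5788 for Hspa8 with Hspa1b, where CT replicate 2 gave the low value, and from -0.1955 to 0.5332 for Hspb1 with Bag3, where WT_ST replicate 3 did. The cause was not tested. The same alternatives for called genes of the other lists were added after the data were seen, and none turned a direction. Of 31 such calls, 18 were lost without some mouse and 14 under another alternative. Among 10 alternatives other than leaving out a mouse, Dnajb4 lost its call in 1, Dnajb6 in 2 against CT and 1 against WT_ST, Ier2 in 3, Nr4a1 in 1, Csf1r and Tmem119 in 2 each in KO_ST and 1 each in WT_ST, Cx3cr1 in 1 in WT_ST, and P2ry12 in 2 in WT_ST against CT and 6 in KO_ST against WT_ST. For stressed mice Aqp4 and Pvalb each lost theirs in 1 of 9.

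Same-numbered mice of different groups did not deviate together (mean correlation -0.0101, range -0.259 to 0.234, 9 pairs), so the numbers were not taken as a pairing. With the replicate block 0 of 10 genes were called in each comparison. In this balanced design the block leaves log2 differences as they were by construction. For Dnajb1 the limma p moved from 0.0206 to 0.0362 in KO_ST against CT (adjusted p = 0.460) and from 0.00797 to 0.0218 in KO_ST against WT_ST (adjusted p = 0.981).

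The precision is limited by 3 mice per group, and for Hspb1 and Bag3 also by read number.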
